A study of Mus musculus with 4 samples.

Results

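Small nucleolar RNA (snoRNA) host genes are transcribed as spliced RNAs whose introns carry snoRNAs, the short guide RNAs of the nucleolus. Box C/D snoRNAs direct 2′-O-methylation and box H/ACA snoRNAs direct pseudouridylation, mostly of ribosomal RNA. The snoRNA is trimmed out of the excised intron, while the spliced exons of many long non-coding hosts begin with a terminal oligopyrimidine tract, are engaged by ribosomes and are degraded by nonsense-mediated decay. The 10 genes described here were Snhg1, Snhg3, Snhg5, Snhg6, Snhg8, Snhg11, Snhg12, Snhg14, Snhg15 and Gas5, out of 25393 genes listed. They belong to the long non-coding host class and were chosen by name because Snhg11 was near zero in both libraries labelled KO. The difference between KO and WT was therefore used in the choice, so it is described for the members without p-values, and the counts of members past a threshold are given only beside the same share of all genes. Of the 10 members, 9 had a mean of at least 1 normalized count and entered the fit, and Snhg3 did not.

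RNA-seq was carried out on untreated primary astrocytes from cortex and hippocampus of C57BL/6 pups at postnatal day 1, with 2 libraries from WT and 2 from tet1-/- mice, which lack Tet1 in all cells (constitutive KO). Each isolation used 2 pups, and the cells were grown for about 7 days, shaken at 260 rpm and kept for a further 24 h before total RNA was extracted. The study describes its RNA-seq repeats as biological, in a larger number per genotype than the libraries analysed here, while the labels do not tie each library to a culture. The p-values measure only the spread between these libraries. Each deposited value was a read count scaled by its library's size factor, called a normalized count below, with 18749610 to 22673555 reads on genes per library. A count of 3 reads, used as the detection floor, was worth 2.70 to 3.21 normalized counts. Tet1 RNA did not fall in KO, with 266 and 121 normalized counts in WT, against 173 and 463 in the libraries labelled KO, while Xist, which is transcribed from the inactive X chromosome, had 8.54 and 0.920 in WT and 2896 and 13367 in KO. The libraries are therefore called by their labels throughout. Sex cannot be told apart from genotype in these 4 libraries. Among genes with a mean of at least 50, 28.6% differed over 2-fold between the libraries labelled KO and 10.7% between the WT libraries. Of the 9 tested members, 4 did so in KO and 2 in WT. Snhg11 is among the 4 in KO, but with only 4 and 1 reads there, near the floor.

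The snoRNAs held by the members show how different these hosts are. Snhg11 on chr2:158375638-158386145 (plus strand, GRCm38) holds 2 snoRNA genes of 133 bases each, Gm25187 at chr2:158378222-158378354 and Gm25129 at chr2:158379534-158379666. Both carry the hinge and the terminal ACA of the box H/ACA class, shown in capitals (hinge letters ANANNA, beginning at bases 57 and 59). Compared position by position from the first base, without gaps, they shared 42.1% of their bases. Their hinges begin at different bases, so this share does not measure how alike they are once aligned. Both sequences are printed because Snhg11 set the choice of these genes. They were read from the GENCODE M21 transcript sequences, 5′ to 3′, with T for U.
Gm25187: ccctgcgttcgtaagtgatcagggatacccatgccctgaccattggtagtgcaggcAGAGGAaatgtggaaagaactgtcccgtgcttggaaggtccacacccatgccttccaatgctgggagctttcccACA
Gm25129: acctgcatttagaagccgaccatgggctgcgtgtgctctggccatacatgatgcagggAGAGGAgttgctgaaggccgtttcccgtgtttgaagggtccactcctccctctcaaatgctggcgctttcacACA

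Snhg5 on chr9:88521050-88522929 (minus strand) holds the box C/D pair Snord50a, at chr9:88521529-88521600, and Snord50b, at chr9:88521797-88521868. These are shown as the contrasting class and as near-identical copies, with 71 of 72 bases the same. Capitals mark the C box (TGATGA) and the D box (CTGA).
Snord50a: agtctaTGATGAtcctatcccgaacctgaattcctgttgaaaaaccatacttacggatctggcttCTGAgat
Snord50b: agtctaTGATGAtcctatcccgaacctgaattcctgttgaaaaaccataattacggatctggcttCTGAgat

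Among the 240 snoRNA genes annotated within the members, 203 had both a C box in the first 15 and a D box in the last 15 bases, and 7 had a hinge at bases 50 to 80 with ACA in the last 8 bases of at least 100. Most of them, 208, lie in Snhg14 on chr7:59307924-59975759 (minus strand), the long imprinted transcript of the Snrpn and Ube3a domain. Gas5 on chr1:161034422-161038539 holds 10 annotated snoRNA genes at 9 positions, Snhg1 on chr19:8723475-8726443 holds 8, and Snhg12 on chr4:132308623-132311024 holds 5 at 4 positions. Snhg3 (chr4:132348014-132353686) holds Snora73a and Snora73b. Snhg6 (chr1:9941959-9944118), Snhg8 (chr3:123507552-123508404) and Snhg15 (chr11:6525591-6528760) hold 1 each, which are Snord87 in Snhg6 and Snora24 in Snhg8.

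**Figure D1:**
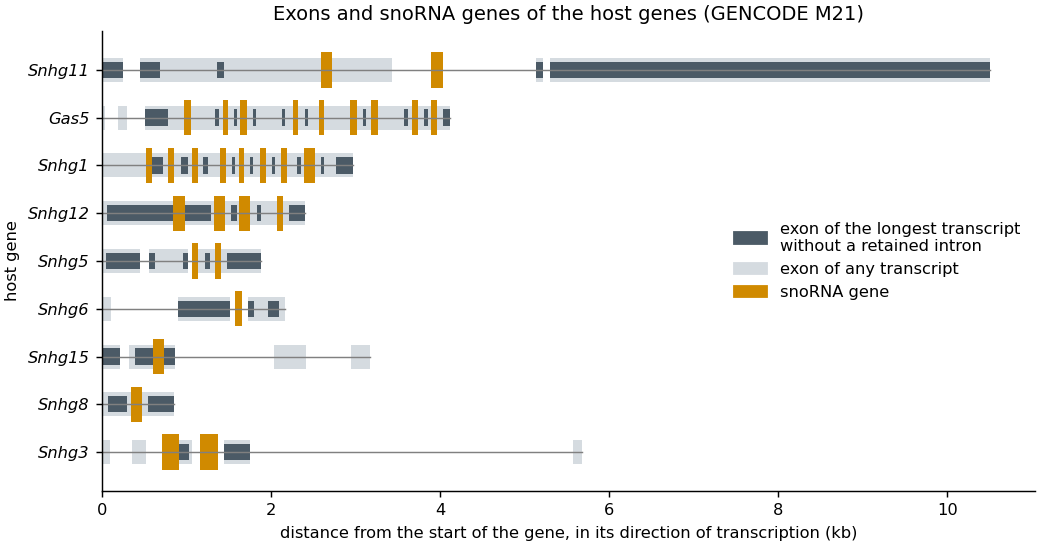
Exons and snoRNA genes of 9 host genes by distance in kb from the start of each gene, in its direction of transcription. Dark boxes are exons of the longest transcript without a retained intron, pale boxes are exons of any annotated transcript and orange boxes are snoRNA genes. Snhg14, with 208 snoRNA genes over a far longer span, is left out. In Gas5 and Snhg1 every snoRNA lies within a pale box.

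This layout bears on what a read on a host gene means. The gene lengths in the deposited table equalled the union of all annotated exons, retained introns included. All 10 snoRNA genes of Gas5, all 8 of Snhg1, all 5 of Snhg12, both of Snhg5 and the single ones of Snhg8 and Snhg15 lie inside that union, so reads from the snoRNA, the unspliced RNA and the spliced host cannot be told apart there. In Snhg1, 14 of 18 annotated transcripts retain an intron, and in Gas5 20 of 25 do. In Snhg11, which GENCODE M21 types as protein-coding with 2 of its 5 transcripts under nonsense-mediated decay, the union holds Gm25187 but not Gm25129. Of all the snoRNA genes held by members, the table lists only Snord87 of Snhg6, with 0, 0.920, 0 and 0.901 normalized counts in WT replicates 1 and 2 and KO replicates 1 and 2.

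Levels of the members were compared per length, as FPKM (reads scaled by the length of the exon union and by the reads on genes). The 3 highest means were Snhg8 with a mean of 21.3 FPKM over the 4 libraries (19.6 to 23.1), Gas5 with 17.8 (12.7 to 25.5) and Snhg6 with 16.1 (8.43 to 33.3). A middle group by mean held Snhg15 with 5.87 (3.63 to 9.79), Snhg1 with 5.77 (3.48 to 8.73), Snhg5 with 5.66 (3.06 to 10.7) and Snhg12 with 4.45 (3.80 to 5.42). Snhg11 followed at 2.76, ranging from 0.00524 to 9.78, then Snhg14 at 0.475 (0.0629 to 1.12) and Snhg3 at 0.0248 (0 to 0.0541). Neighbours within the highest and within the middle group overlapped in their ranges, and so did Snhg6 with Snhg15, Snhg12 with Snhg11 and Snhg11 with Snhg14, but not Snhg14 with Snhg3. Snhg8 lay above all 4 genes of the middle group in every library.

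**Figure D2:**
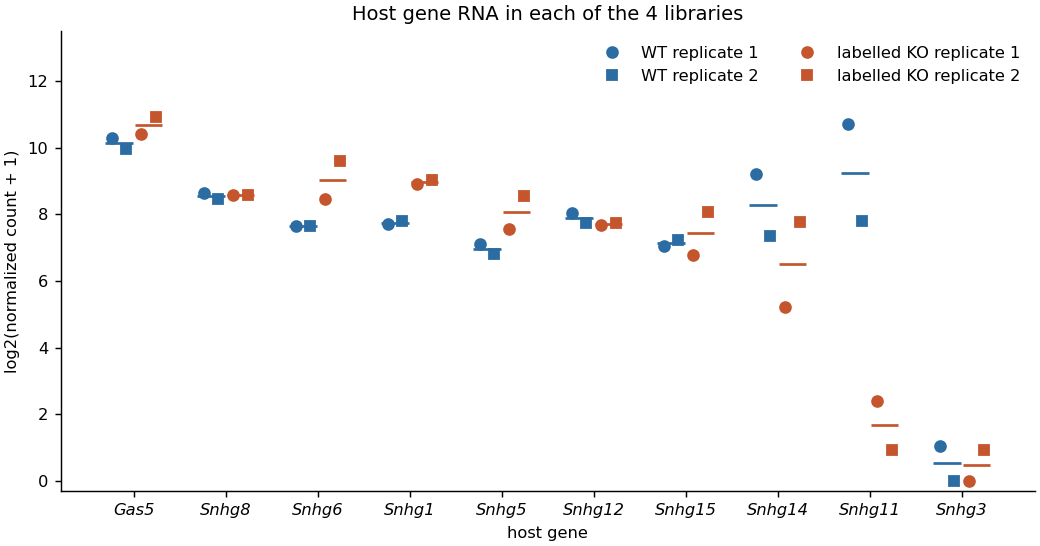
log2(normalized count + 1) of the 10 host genes in each of the 4 libraries, with circles for replicate 1, squares for replicate 2 and a bar at the mean of each label. Snhg11 is high in both WT libraries and near 0 in both libraries labelled KO, while Snhg1, Snhg5 and Snhg6 lie higher in KO and Snhg8 is level.

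Snhg11, a long non-coding host known for its enrichment in neurons, had by far the widest range. It had 1668 normalized counts in WT replicate 1 and 222 in WT replicate 2, against 4.28 and 0.901 in the libraries labelled KO. These are 1563, 241, 4 and 1 reads, so both libraries labelled KO lay near the 3-read floor and both WT libraries were far above it. The exact Poisson 95% intervals were 1586 to 1752 and 195 to 251 normalized counts in WT, and 1.17 to 11.0 and 0.0228 to 5.02 in KO. Intervals of this kind cover counting error only. The mean was 945 ± 1023 in WT and 2.59 ± 2.39 in KO (SD, n = 2). The summed normalized counts were 365-fold higher in WT, with a counting interval of 156 to 1124, and even the lower WT library was 51.8-fold above the higher KO library. The limma log2 fold change, KO minus WT, was -7.59 ± 1.12 (SE), and 2 of the 22094 tested genes had a more negative one. Snhg11 was chosen for its low values in KO, so nothing is read from this rank. The WT libraries themselves differed 7.53-fold, with replicate 1 the higher. In this bulk RNA, fewer cells that transcribe a gene and less RNA per cell cannot be told apart.

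CpG dinucleotides, where the Tet enzymes oxidize 5-methylcytosine, were counted in the start region of Snhg11. In the 300 bases from 250 before to 50 after the RefSeq start, at chr2:158375463-158375762 (GRCm38.p6, plus strand), 21 CpGs were counted, and 24.8% of 32851 promoters of this length had at least as many. The window is shown with each CG in capitals. No methylation was measured in the data used here, and a link between these CpGs and the Snhg11 values was not tested.
Snhg11 promoter: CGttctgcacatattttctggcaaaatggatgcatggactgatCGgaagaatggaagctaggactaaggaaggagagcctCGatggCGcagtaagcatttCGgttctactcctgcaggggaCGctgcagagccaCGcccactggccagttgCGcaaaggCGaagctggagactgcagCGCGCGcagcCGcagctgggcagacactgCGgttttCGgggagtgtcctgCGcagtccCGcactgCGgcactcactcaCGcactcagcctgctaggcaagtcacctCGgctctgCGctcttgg

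Over the 10 start windows available for 9 members, CpG counts ran from 2 at Snhg14 to 36 at Snhg5, against a median of 7 over all promoters. Snhg5, Gas5 (33, upstream start), Snhg8 (30), Snhg15 (29) and Snhg1 (25) had more than the 21 of Snhg11. The Snhg14 window, at chr7:60450128-60450427, lies upstream of the span given above. Its letters are therefore those of a RefSeq start outside the counted gene. The other feature examined was the oligopyrimidine start, searched on the transcribed strand as a C followed by at least 4 pyrimidines within 10 bases of the start. It was found at Gas5 (the downstream of 2 starts), Snhg3, Snhg5, Snhg8 and Snhg12, and in 30.7% of all promoters and 56.2% of 73 promoters of ribosomal protein genes. Snhg1, Snhg11, Snhg14 and Snhg15 had no such letters around their RefSeq starts. The windows printed below lie inside the gene spans given above, and the outer end of those spans was not searched for a tract. The 50 bases around the start (base 21) are printed for 3 hosts with the tract in capitals and for Snhg11, which has none.
Gas5, chr1:161035146-161035195, plus: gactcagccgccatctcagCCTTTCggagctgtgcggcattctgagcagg
Snhg8, chr3:123508307-123508356, minus: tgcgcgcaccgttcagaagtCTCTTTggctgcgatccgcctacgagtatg
Snhg12, chr4:132308658-132308707, plus: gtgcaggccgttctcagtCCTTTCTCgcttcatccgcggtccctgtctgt
Snhg11, chr2:158375693-158375742, plus: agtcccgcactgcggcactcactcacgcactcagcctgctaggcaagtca

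The neighbours of Snhg11 did not share its pattern. Snhg17, itself a snoRNA host 14058 bases away on the opposite strand, had 359 and 329 normalized counts in WT, against 219 and 480 in KO, so the labels overlapped. Ralgapb, a subunit gene of the Ral GTPase activating complex 23703 bases away on the other side, had 2369 and 1995 in WT and 2419 and 3224 in KO. The 5 genes of 12867 candidates whose profile over the 4 libraries was closest to that of Snhg11, by the root mean square difference of centred log2 values, were Slfn8 (0.75), Chil1 (0.82), Ces1d (1.04), Ifi27l2a (1.05) and Ephx4 (1.12). Slfn8 had 297 and 159 normalized counts in WT, against 1.07 and 0 in KO. Chil1, a secreted chitinase-like protein, was far more abundant, with 142981 and 49704 in WT and 1649 and 702 in KO. Ifi27l2a, an interferon-induced gene, had 1055 and 120 in WT and 15 and 2.70 in KO. All 5 lie on other chromosomes.

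Snhg14, which includes the antisense transcript of Ube3a, varied within both labels. It had 587 and 161 normalized counts in WT, against 36.4 and 219 in KO, so the highest value was in WT replicate 1, the lowest in KO replicate 1, and the labels overlapped. Its log2 fold change was -1.77 ± 1.03 (SE), and it moved between -3.04 and -0.49 when 1 library was left out. Without KO replicate 1 it was -0.49. Among the genes that overlap Snhg14, Ube3a, a ubiquitin ligase gene on the opposite strand, had 1092 and 345 in WT and 204 and 1540 in KO, and Gm38393, on the same strand, had 285 and 74.5 in WT and 20.3 and 142 in KO. Whether the counting used strand is not given in the sources used here, so reads in the 3613 bases that Snhg14 shares with Ube3a and the 1611 shared with Gm38393 cannot be assigned with certainty. Of the 7 genes named for this imprinted domain (Snrpn, Snurf, Ube3a, Ndn, Magel2, Mkrn3 and Peg12), 5 were listed and tested, and 0 had an unadjusted p under 0.05 in limma or an adjusted p under 0.05 in DESeq2. Ndn, a growth suppressor of neurons with the highest level, had 2608 and 3718 in WT and 2722 and 2553 in KO. Peg12 had the largest difference, with 69.4 and 120 in WT and 138 and 312 in KO (limma log2 fold change 1.17 ± 0.58, adjusted p = 0.44).

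Snhg6, the host of Snord87, had 198 and 201 normalized counts in WT, against 353 and 772 in KO. The WT libraries were nearly equal, the KO libraries lay 2.18-fold apart, and the labels did not overlap. Its log2 fold change was 1.38 ± 0.47 (SE). Snhg1, whose introns carry Snord22 among other C/D snoRNAs, had 207 and 223 in WT and 476 and 524 in KO, with a log2 fold change of 1.21 ± 0.33. Of the 4 members that were higher in both libraries labelled KO, Snhg1 had the libraries labelled KO closest together, and its estimate ran only from 1.14 to 1.28 over the fits that left out 1 library.

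Snhg5 had 137 and 110 normalized counts in WT, against 189 and 373 in KO, with a log2 fold change of 1.11 ± 0.48 that ran from 0.62 to 1.60 with 1 library left out. Gas5, named for its accumulation in growth-arrested cells, had 1261 and 995 in WT and 1370 and 1934 in KO, with a log2 fold change of 0.54 ± 0.33. The labels did not overlap for either gene, but KO replicate 1 lay close to the WT libraries in both. Scaled to equal sums, WT replicate 1 and KO replicate 1 of Gas5 changed order, so its labels overlapped. Zbtb37 shares 428 bases with Gas5 on the opposite strand and had 943 and 415 in WT and 214 and 913 in KO.

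Snhg8, Snhg12 and Snhg15 showed little or no difference beyond the replicates. Snhg8, the host of Snora24, had 395 and 349 normalized counts in WT, against 384 and 379 in KO, a log2 fold change of 0.04 ± 0.32, whose sign turned under equal sums, FPKM, edgeR and without WT replicate 2. Snhg12 had 260 and 212 in WT and 202 and 211 in KO, a log2 fold change of -0.19 ± 0.36. Its labels were separated by less than 2 normalized counts, overlapped at equal sums, and its sign turned under quantile normalization (0.08). Snhg15 had 131 and 149 in WT and 109 and 269 in KO, a log2 fold change of 0.29 ± 0.55, and without KO replicate 2 it was -0.35. The KO libraries of Snhg15 lay on either side of both WT libraries.

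Snhg3 had 1, 0, 0 and 1 reads, under the floor in every library, so no fold was formed. Of its span, 98.6% lies inside Rcc1, a regulator of chromosome condensation on the same strand, which had 214 and 278 normalized counts in WT, against 389 and 790 in KO. How reads shared by Snhg3 and Rcc1 were assigned is not given in the sources used here.

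**Figure D3:**
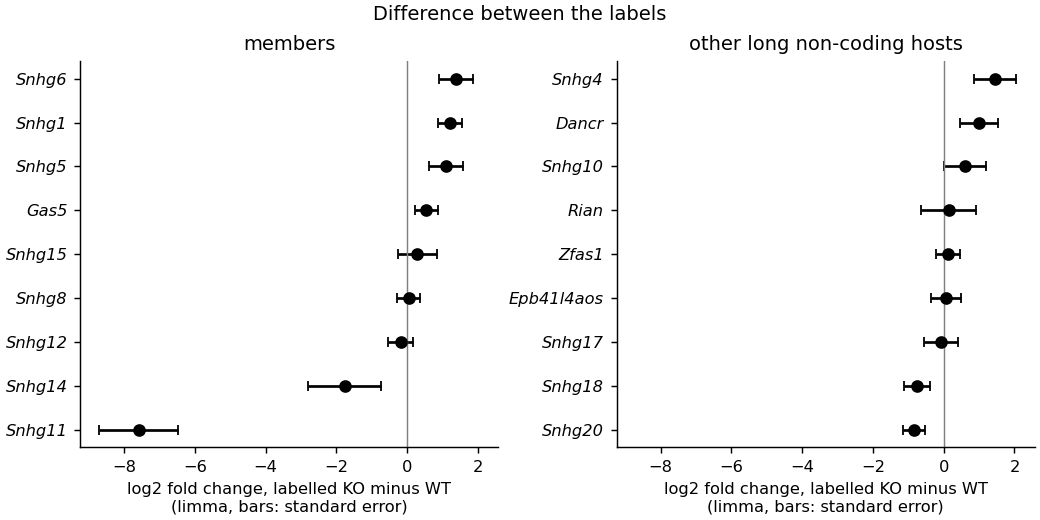
limma log2 fold change, KO minus WT, on log2(normalized count + 1), with bars of 1 standard error, for the 9 tested members (left) and 9 other long non-coding snoRNA hosts (right). Snhg11 at -7.59 lies apart from every other host shown, and the other hosts on the right run from -0.84 at Snhg20 to 1.44 at Snhg4.

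Counted over the 9 tested members, 6 had a higher and 3 a lower mean log2 value in KO. The labels did not overlap for 4 higher genes (Snhg1, Snhg5, Snhg6 and Gas5) and 2 lower genes (Snhg11 and Snhg12), while over all tested genes 22.5% did so higher and 25.4% lower. An unadjusted limma p under 0.05 was reached by 2 members higher and 1 lower, against 4.54% and 9.18% of all genes. With adjustment, limma called 0% of 22094 genes, and edgeR called 0 as well, with 3032 genes in limma and 2733 in edgeR at an unadjusted p under 0.05. DESeq2 called 1 member, Snhg11, where it called 1.64% of genes higher and 4.62% lower. Since the contrast was used to choose the genes, nothing is read from these counts. The median log2 fold change of the members was 0.29, against -0.07 over all tested genes. It depended on the libraries labelled KO, being 0.79 without replicate 1 and 0.05 without replicate 2. With 2 libraries against 2, exact permutation of the libraries for 1 gene gives no p below 0.33.

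The other long non-coding snoRNA hosts gave a like mixture. Of 12 named, 9 were listed. Of these, 3 were higher and 2 lower without overlap, against 22.5% and 25.4% of all tested genes. Limma gave 1 unadjusted p under 0.05, for Snhg20, which had 689 and 719 normalized counts in WT, against 431 and 358 in KO and is named after its values were seen. DESeq2 called 0 of the 9 after adjustment. Rian, an imprinted host of C/D snoRNAs and the most abundant of the list, had 1147 and 3182 in WT and 1104 and 3990 in KO, and both labels spanned almost the same range. Snhg4 had the largest difference, with 60.8 and 50.6 in WT and 97.4 and 238 in KO (log2 fold change 1.44 ± 0.59, limma adjusted p = 0.37). The median of the list was 0.12.

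Host genes as a wider class were described from the annotation. The class shares genes with other lists given here, among them Rian, Snhg4, Nop56, Nop58, Dkc1 and Top2a, so the lists are not independent. Of 274 genes other than the members whose span holds a snoRNA gene on their own strand, mostly protein-coding, 267 were tested. Their median log2 fold change was 0.29, and 68.2% had a higher mean log2 value in KO, against 46.3% of all tested genes. The labels did not overlap for 106 higher genes (39.7%) and 32 lower genes. An unadjusted limma p under 0.05 was given to 23 higher and 13 lower, and DESeq2 called 4 higher and 5 lower after adjustment. Eef2, the translation elongation factor and the most abundant host, had 28717 and 33554 normalized counts in WT, against 53141 and 46106 in KO. Dnah6, a ciliary dynein heavy chain, had 306 and 332 in WT and 43.9 and 2.70 in KO (DESeq2 log2 fold change -3.78, adjusted p = 0.0047, limma adjusted p = 0.24). The 29 ribosomal protein genes among these hosts, a subset taken by symbol, had a median of 0.61. Without overlap, 25 were higher (86.2%) and 1 lower (3.4%), against 22.5% and 25.4% of all tested genes. Rps2, with the highest level and the largest difference of them, had 6909 and 9817 in WT and 19622 and 30976 in KO (DESeq2 log2 fold change 1.60, adjusted p = 0.021, limma adjusted p = 0.23). The members' median, which was the value of Snhg15, equalled that of the wider class to 2 decimals. Nothing is read from this match, since both medians moved with the libraries labelled KO. The wider class had a median of 0.57 without KO replicate 1 and 0.14 without KO replicate 2. Among the members, Snhg11 and Snhg14 lay far below either median.

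**Figure D4:**
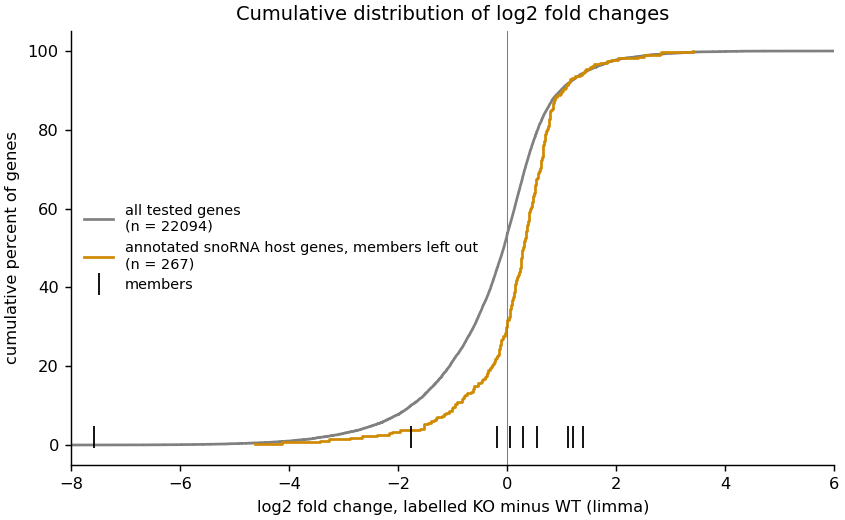
Cumulative percent of genes by limma log2 fold change, KO minus WT, for all 22094 tested genes (grey) and 267 annotated snoRNA hosts other than the members (orange), with black ticks for the members. The orange curve lies to the right of the grey one over most of the range, with medians of 0.29 and -0.07, and the Snhg11 tick is at the far left.

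The proteins that bind snoRNAs were next examined. All 5 box C/D proteins (Fbl, Nop56, Nop58, Snu13 and Rrp9) and all 4 box H/ACA proteins (Dkc1, Gar1, Nhp2 and Nop10) had a higher mean in KO, with medians of 0.87 and 0.63. Without overlap, 4 and 3 of them were higher, against 22.5% of all tested genes. None of these 9 was called by limma, edgeR or DESeq2 after adjustment, and 1, Fbl, had an unadjusted limma p under 0.05. Fbl, the 2′-O-methyltransferase of the box C/D particle, had 861 and 1038 normalized counts in WT, against 1461 and 3101 in KO (log2 fold change 1.17 ± 0.43, limma adjusted p = 0.35). Snu13, which binds the kink-turn of box C/D snoRNAs and had the highest level, had 1276 and 1572 in WT and 1935 and 2007 in KO. Nhp2, a core H/ACA protein, had 404 and 695 in WT and 799 and 2118 in KO (log2 fold change 1.29 ± 0.56, limma adjusted p = 0.40). KO replicate 2 was the highest library for 8 of the 9 genes, and for Nop58 and Dkc1 KO replicate 1 was the lowest. Without KO replicate 2 the medians were 0.34 and 0.56.

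Factors that assemble snoRNA particles and factors of nonsense-mediated decay, which degrades many spliced hosts, showed smaller values. Of 10 assembly factors, 4 were higher and 1 lower without overlap, with a median of 0.39. Of 10 decay factors, 5 were higher and 1 lower, with a median of 0.19. Over all tested genes, 22.5% were higher and 25.4% lower without overlap. Neither list had a gene with an unadjusted limma p under 0.05 or a DESeq2 adjusted p under 0.05. Ruvbl1, an ATPase of the assembly complex, had 940 and 1312 normalized counts in WT, against 1599 and 1859 in KO. Znhit6, also of the assembly pathway, had 321 and 269 in WT and 404 and 661 in KO. Upf1, the helicase at the centre of nonsense-mediated decay, had 2338 and 2780 in WT and 2469 and 2994 in KO, so its labels overlapped. Upf3a had the largest difference of the decay factors, with 591 and 888 in WT and 1283 and 1061 in KO (log2 fold change 0.69 ± 0.34, limma adjusted p = 0.44).

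Levels of cell type markers and of proliferation genes differed between the labels, and their part in the values of the host genes was not tested. Astrocyte markers (8 genes) were present in all 4 libraries, with summed levels of 1472 and 1410 FPKM in WT and 2538 and 349 in KO, and none was at 0. The sum was carried by Gfap, an intermediate filament, which had 58004 and 67297 normalized counts in WT, against 174853 and 9945 in KO. Of the 8 genes, 7 had a lower mean log2 value in KO, with a median log2 fold change of -0.78. Gfap was 1 of the 7, although its mean normalized count was 62650 in WT and 92399 in KO. Without overlap, 5 genes were lower and 0 higher, against 25.4% and 22.5% of all tested genes. Slc1a2, a glutamate transporter with the largest difference, had 11394 and 5793 in WT and 3078 and 597 in KO (log2 fold change -2.58 ± 0.82, limma adjusted p = 0.30, DESeq2 adjusted p = 0.068). The neuron list, of which 16 of 17 genes were listed, summed to 30.0 and 69.9 FPKM in WT and 36.1 and 54.3 in KO, with the labels overlapping, and 7, 6, 5 and 1 of its genes lay under the floor in the 4 libraries. Of its 15 tested genes 12 had a higher mean log2 value in KO. Of the 16 listed, 8 were higher and 1 lower without overlap, against 22.5% and 25.4% of all tested genes. Snap25 and Nefl were at 0 in both WT libraries. DESeq2 called Tubb3, a neuronal tubulin, higher, with 52.3 and 80.9 in WT and 170 and 307 in KO (adjusted p = 0.042, limma adjusted p = 0.27). It called Gad1, an enzyme of GABA synthesis, lower, with 152 and 74.5 in WT and 15 and 29.7 in KO (DESeq2 adjusted p = 0.037, limma adjusted p = 0.27). Map2, the neuron marker with the highest level, had 3440 and 1892 in WT and 2315 and 2779 in KO. The microglia list (12 genes) summed to 66.3 and 99.2 FPKM in WT and 25.1 and 11.9 in KO. Of its 12 genes, 11 were lower without overlap, against 25.4% of all tested genes. DESeq2 called 9 lower, where it called 4.62% of all genes lower. C1qa, a complement gene, had 268 and 442 in WT and 33.2 and 5.41 in KO. The oligodendrocyte lineage list (8 genes) summed to 153 and 228 FPKM in WT and 370 and 231 in KO. Olig1 alone had 122 and 178 FPKM in WT and 320 and 162 in KO. Of the 8 genes, 3 had a higher and 5 a lower mean log2 value in KO, with a median log2 fold change of -0.40. Without overlap, 1 was higher and 2 lower, against 22.5% and 25.4% of all tested genes. Olig1 had 5256 and 8033 normalized counts in WT, against 15319 and 7074 in KO, and Cspg4 had 330 and 413 in WT and 39.6 and 128 in KO (DESeq2 adjusted p = 0.033, limma adjusted p = 0.25).

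The 10 proliferation genes were higher without overlap in both libraries labelled KO, against 22.5% of all tested genes. DESeq2 called 6 of them, where it called 1.64% of all genes higher, while limma called 0 after adjustment. Their summed level was 2.88 and 17.3 FPKM in WT and 47.4 and 79.2 in KO. Top2a, the topoisomerase of dividing cells, had 88.6 and 442 normalized counts in WT, against 818 and 2405 in KO, and Ccnb1, a mitotic cyclin, had 4.27 and 159 in WT and 545 and 683 in KO.

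**Figure D5:**
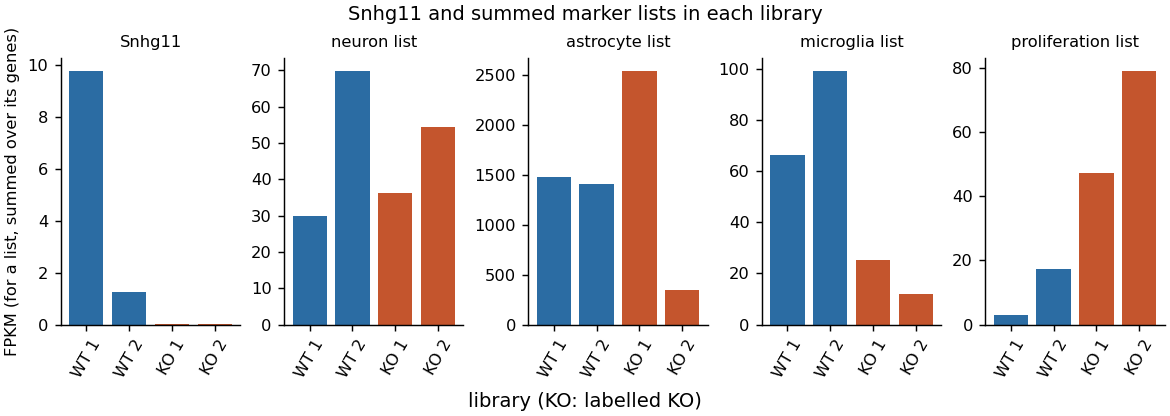
FPKM of Snhg11 and summed FPKM of 4 marker lists in each library, with bars from 0 and WT in blue and the libraries labelled KO in red. Snhg11 is 9.78 in WT replicate 1 and near 0 in both KO libraries, the neuron sum is highest in WT replicate 2, the microglia sum is lower and the proliferation sum higher in both KO libraries.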

How the data were processed

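RNA-seq of 2 WT and 2 KO astrocyte libraries was analysed, grouped by GEO's labels. The authors filtered paired-end reads and aligned them to mm10, and the aligner, the counter and the annotation release are not given in the sources used here. They deposited 1 signal value per gene and library, which was a read count divided by a size factor (0.934 to 1.11). Whole reads were recovered, since 100% of the values were multiples of 1 read within 0.01. The deposited genotype means, log2 fold changes, p-values and adjusted p-values were not used.

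Genes whose mean reached 1, 22094 in all, were fitted with limma 3.58.1 (variance trend, no block) in R 4.3.3 on log2(normalized count + 1), with Benjamini-Hochberg adjustment. Fold changes on this scale understate those of low genes. The recovered reads were also tested with edgeR 4.0.16 (quasi-likelihood) and DESeq2 1.42.0, DESeq2 leaving 17382 genes with an adjusted p, and FPKM was computed from these reads and the deposited gene lengths. The scripts were tested on simulated data. Positions were compared with GENCODE M21, in which 25367 identifiers were found. Promoters came from RefSeq (GRCm38.p6).

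The members and lists were chosen with earlier results of these data known. Named were the members, the most abundant and the most different gene of each list (mean at least 50), neighbours, markers, and the 5 profiles closest to Snhg11. Alternatives were other pseudocounts, filters, scalings and tools, FPKM, a replicate block and leaving out each library.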

Additional observations from a re-analysis of the deposited data

How the results depend on the processing

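The number of genes called after adjustment was 0 with limma, 2 on FPKM and 1088 with DESeq2. Same-numbered libraries did not deviate together (r = -0.08 over 22094 genes and -0.11 over the 12868 with a mean of at least 50). These values cannot tell whether same-numbered libraries were prepared together, which the labels do not give. With the replicate block 0 genes were called after adjustment and 2583 rather than 3032 had an unadjusted p under 0.05. A crossed replicate block, chosen after seeing the data, called 244. Leaving out 1 library gave 1135 to 4846 genes at an unadjusted p under 0.05, the lowest without WT replicate 1 and the highest without KO replicate 1, with 1380 without WT replicate 2. Quantile normalization moved the median of all genes from -0.07 to 0.08 and the split of these genes from 1004 higher and 2028 lower to 1417 and 1490. Over 16 alternatives, Snhg1, Snhg5, Snhg6, Snhg11, Snhg14 and Gas5 kept their direction. Other filters, a fit without the variance trend and the replicate block could not change a direction, since they return the same estimate. Nor could another pseudocount or leaving out 1 library for Snhg1, Snhg5, Snhg6, Snhg11 and Gas5, whose labels did not overlap. Snhg11 ran from -9.04 to -5.01, the latter on FPKM. Snhg8 changed sign in 4 alternatives, Snhg12 in 1 and Snhg15 in 1. The causes were not tested. With 4 or fewer reads, Snhg3 and the KO libraries of Snhg11 cannot be ranked.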

Other observations

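The deposited table lists 167 snoRNA and 16 small Cajal body RNA genes in their own right. Their levels were low, with a median mean of 1.59 normalized counts for the snoRNAs and a highest mean of 66.3, and 1 of the 167 reached a mean of 50. For the small Cajal body RNAs the median was 1.93.

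Among the annotated snoRNA hosts other than the members, the 9 genes called by DESeq2 are named here after their values were seen. The 4 higher in KO were Top2a, Cep55 and Cks2, which act in cell division, and Rps2. Cks2, a cyclin-dependent kinase subunit, had 27.7 and 105 normalized counts in WT, against 361 and 404 in KO. The 5 lower were Dnah6, Trpm2, Tbxas1, Pcdhga1 and 9430037G07Rik. Tbxas1, thromboxane synthase, had 42.7 and 70.8 in WT and 8.56 and 1.80 in KO. 9430037G07Rik had 49.1 and 37.7 in WT and 5.35 and 4.51 in KO. None of the 9 was called by limma or edgeR after adjustment. Over all genes, DESeq2 called 1.64% higher and 4.62% lower.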
